A study of Mus musculus with 6 samples.

Results

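The genes described here are 9 factors of nonsense-mediated mRNA decay, Upf1, Upf2, Upf3a, Upf3b, Smg1, Smg5, Smg6, Smg8 and Smg9. They were chosen by their symbols, were all found among the 24028 genes of the count table, and all had enough counts to be tested. Messenger RNA was counted in a clonal line of C2C12, an immortalised mouse myoblast line, which carries under puromycin selection a transgene called MMH that doxycycline switches on. MMH encodes the amino-terminal part of mouse Dux with its homeodomains, fused to human DUX4 from just beyond its own homeodomains, both with altered codons. Of 6 separate cultures of this clone, 3 received 2 µg/ml doxycycline (induced) and 3 did not (uninduced). The induction lasted 18 h by the series description and 36 h by the sample protocol, so its length is uncertain. All cultures carry the transgene, and cells given doxycycline without it were not analysed here, so each difference below is that of drug and transgene together in 1 clone.

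Nonsense-mediated decay is the surveillance pathway that removes messenger RNAs on which translation stops too early, and it also tunes many normal transcripts. The helicase UPF1 is phosphorylated by the kinase SMG1, which the SMG8 and SMG9 proteins hold and restrain. UPF2 and the UPF3 proteins link UPF1 to the exon junction complex, and SMG5 and SMG6 bind phosphorylated UPF1 to start destruction of the RNA. Human DUX4 is known to block this pathway in muscle cells with loss of UPF1 protein, and the comparison asks what happens to the messenger RNAs of the pathway when the chimeric factor is switched on. Protein was not measured.

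The libraries held 21.5 to 24.5 M counts. Induction was seen at the Zscan4 genes, cleavage-stage genes that Dux activates, whose share of all counts was 0.130% to 0.136% before and 17.6% to 18.05% after induction. Of 7 myoblast markers, 6 were tested and 5 fell under TMM scaling, where 41.3% of all tested genes were higher and 41.2% lower. The 7 summed to 1998 to 2009 CPM (counts per M counts of the TMM-scaled library) before induction, against 1185 to 1222 CPM after it. Markers of adipocytes, endothelial cells, leukocytes and epithelial cells were low in both groups. The summed adipocyte markers were at 0.389 to 0.582 CPM before and 6.83 to 7.96 CPM after induction, with Fabp4 the 1 marker tested and higher, and Lep without a count in any library. The summed endothelial markers were at 0.0647 to 0.459 CPM before and 2.05 to 2.41 CPM after induction, with Pecam1 and Tek tested and both higher. The summed leukocyte and epithelial markers were at or below 1.48 CPM in every library, and the 1 marker tested of each was not called. The 4 neuronal markers summed to 57.1 to 61.5 CPM before induction, against 101 to 110 CPM after it, nearly all of it from Tubb3, a tubulin gene that the line expresses. Of these 4, 2 were tested and both were higher, at log2 fold changes of 0.75 and 3.64. The part of these identity changes in the results below was not tested. In bulk RNA, fewer cells that express a gene and less of its RNA per cell cannot be told apart.

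The promoters of the members that moved most are shown because these genes encode partners in the same kinase complex and moved in opposite directions. Each is the 250 bases before the transcript start used in the RefSeq promoter table (GRCm38.p6), 5′ to 3′ on the strand of the gene, with CG dinucleotides in capitals. That of Smg8 lies on the minus strand at chr11:87086778-87087027 and that of Smg9 on the plus strand at chr7:24399378-24399627.
Smg8: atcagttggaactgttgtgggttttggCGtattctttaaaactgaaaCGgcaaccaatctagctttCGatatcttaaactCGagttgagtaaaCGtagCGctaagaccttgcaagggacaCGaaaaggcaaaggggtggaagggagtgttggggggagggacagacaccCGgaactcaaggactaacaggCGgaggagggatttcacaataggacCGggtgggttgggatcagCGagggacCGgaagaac
Smg9: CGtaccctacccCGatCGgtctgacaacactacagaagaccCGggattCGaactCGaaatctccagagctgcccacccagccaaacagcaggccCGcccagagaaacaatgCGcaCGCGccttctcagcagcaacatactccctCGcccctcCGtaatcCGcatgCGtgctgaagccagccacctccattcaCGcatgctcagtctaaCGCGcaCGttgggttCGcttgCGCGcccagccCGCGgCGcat
The Smg8 stretch holds 12 CG dinucleotides and the Smg9 stretch 24. The Smg8 stretch lies outside the gene in both annotations. The start used for Smg9 is not the outermost one: its stretch lies inside the RefSeq gene span, which begins at 24397517, and its last 9 bases lie inside the GENCODE gene. In the full RefSeq window, which runs 50 bases past the start, the 9 members hold 18 (Smg8) to 47 (Upf1) CG dinucleotides, against a median of 7 over 32851 mouse promoters (quartiles 3 and 20). GC content of these windows was 53.3% for Smg8, the lowest of the 9, and 72.3% for Upf1, the highest, against a median of 52.7% over all promoters. Both strands were searched for AATCA, the letters that end the known DUX4 binding sequence. The homeodomains of MMH are those of mouse Dux, not of DUX4. None of the 9 windows held them, against 37.0% of all promoters in the table, which says only that these letters are not in these windows.

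Among the 9 members, Smg8 and Smg6 rose and Smg9, Upf3b, Smg5 and Upf1 fell, while Upf2, Upf3a and Smg1 were not called. Smg8 rose 2.38-fold and Smg9 fell to 0.353 of its uninduced level, and the other called changes were smaller than 2-fold. Calls are from edgeR's quasi-likelihood test with Benjamini-Hochberg adjustment over 12969 genes at 0.05, on libraries scaled by TMM, which sets the middle of the genes equal between libraries. The call share over all tested genes was 82.5%, with 41.3% higher and 41.2% lower, so 6 called of 9 is not above the background. Likewise the 3 uninduced and 3 induced libraries did not overlap for 6 of the 9 members, against 83.1% of all tested genes. A change of at least 2-fold was called for 2 members, Smg8 and Smg9, against 30.7% of all tested genes. The members' median log2 fold change was -0.04, beside -0.01 over all tested genes.

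The directions of some members depended on how the libraries were scaled. When libraries were scaled by their size alone, the median of all tested genes lay 0.96 lower on the log2 scale, and with upper-quartile scaling it lay 0.14 lower. Smg8 stayed higher and Smg9, Upf3b, Smg5 and Upf1 stayed lower under TMM, RLE, upper-quartile and library-size scaling. Smg6 was higher under TMM and RLE, was not called under upper-quartile scaling (0.15, edgeR adjusted p = 0.062) and was lower with library size alone (-0.67). As a share of all counts, the 9 members together held 0.0619% to 0.0676% without doxycycline and 0.0305% to 0.0324% with it. Their summed TMM-scaled level was 461 ± 21.7 CPM without and 436 ± 13.6 CPM with doxycycline (SD, n = 3 each).

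**Figure D1:**
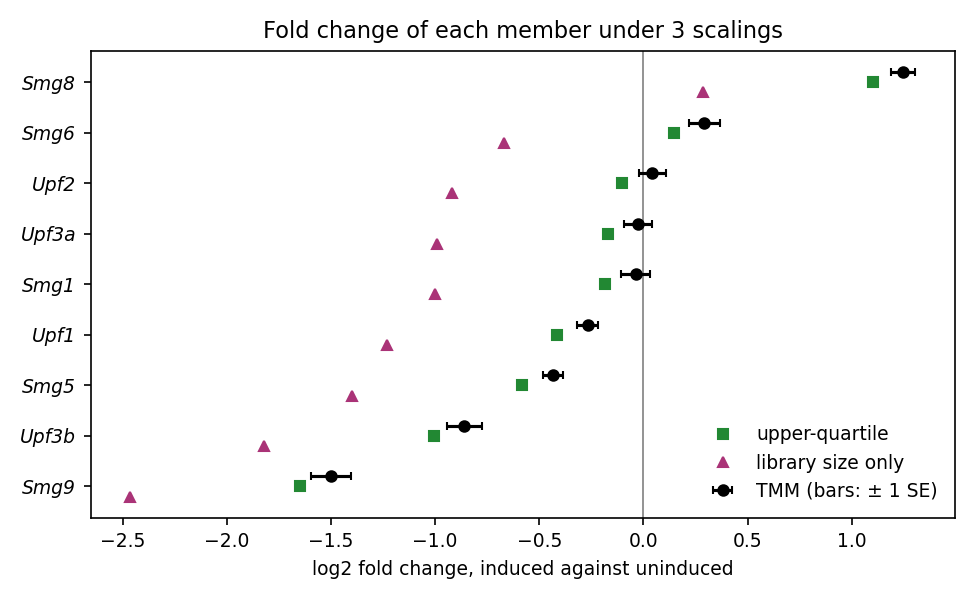
Log2 fold change (x axis, induced against uninduced) of each member (y axis) under TMM scaling with 1 SE bars (circles), upper-quartile scaling (squares) and library size alone (triangles). Each member keeps its place in the order while all shift left together, and Smg8, at 1.25 under TMM and 0.28 with library size alone, is the only member right of 0 under all 3.

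The UPF1 helicase is the central enzyme of the pathway. Upf1 (Entrez 19704, chromosome 8, 70331525 to 70353278, minus strand, GRCm38) had 69.5, 65.8 and 67.6 CPM in the uninduced libraries and 57.7, 54.7 and 56.0 CPM in the induced ones. All 3 induced values lie below all 3 uninduced ones, and the gap is small. The log2 fold change was -0.27 ± 0.05 (SE, edgeR adjusted p = 2.7e-05). In GENCODE M21 the exons of Upf1 overlap those of Gdf1 on the other strand by 63 bases, or 1.36% of Upf1's exon length, and Gdf1 had only 2 to 20 counts per library. Those of Cers1, also on the other strand, overlap Upf1 by 68 bases (1.47%), and Cers1 was not among the counted genes by that symbol.

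UPF2 bridges UPF1 and the UPF3 proteins. Upf2 (Entrez 326622, chromosome 2, 5951469 to 6056703) had 40.5, 34.3 and 35.6 CPM without doxycycline and 37.5, 37.0 and 39.3 CPM with it. The groups overlap, with 1 uninduced library above all the induced ones. Its log2 fold change was 0.04 ± 0.06 (SE, edgeR adjusted p = 0.546), with a sign that turned under upper-quartile scaling (-0.10), under library size alone (-0.92), without the count filter (-0.030) and without uninduced replicate 2 (-0.0084).

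Mammals have 2 UPF3 genes, Upf3a on chromosome 8 and Upf3b on the X chromosome, whose proteins bind the exon junction complex; UPF3B is the more active of the pair in decay. Upf3b (Entrez 68134, chromosome X, 37091678 to 37110322, minus strand) had 17.7, 18.9 and 19.6 CPM without doxycycline and 10.5, 9.64 and 10.7 CPM with it. The groups are well apart, and the log2 fold change was -0.86 ± 0.08 (SE, edgeR adjusted p = 1.6e-09). Upf3a (Entrez 67031, chromosome 8, 13785615 to 13799193) had 25.1, 23.5 and 22.8 CPM without doxycycline and 24.2, 22.8 and 23.2 CPM with it. These values overlap. Its log2 fold change was -0.03 ± 0.07 (SE, edgeR adjusted p = 0.726), and it was called lower with upper-quartile scaling (-0.17, edgeR adjusted p = 0.0216) and with library size alone (-0.99).

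The SMG1 kinase complex holds SMG1 itself, a very large relative of phosphatidylinositol 3-kinases, with SMG8 and SMG9. Smg1 (Entrez 233789, chromosome 7, 118131308 to 118243670, minus strand) had 142, 124 and 116 CPM without doxycycline and 134, 122 and 117 CPM with it. The spread within each group is wider than the distance between their means, and the log2 fold change was -0.04 ± 0.07 (SE, edgeR adjusted p = 0.63). Its sign turned without uninduced replicate 1 (0.048) and without induced replicate 3 (0.0092), and it was called lower without the count filter (-0.11), with upper-quartile scaling (-0.18) and with library size alone (-1.001).

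Smg8 (Entrez 74133, chromosome 11, 87077732 to 87086774, minus strand) had 23.6, 26.0 and 25.2 CPM without doxycycline and 60.0, 56.4 and 61.2 CPM with it. Every induced library is more than 2-fold above every uninduced one. The log2 fold change was 1.25 ± 0.06 (SE, edgeR adjusted p = 8.9e-16), at the 85.6th percentile of all tested genes. The raw counts were higher as well, at 1052, 872 and 1066 with doxycycline against 789, 804 and 769 without it, and with library size alone the change was 0.28 (edgeR adjusted p = 7.7e-05). Smg8 has 4 exons in its GENCODE transcript, the fewest of the 9 members, and a coding sequence of 991 codons.

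Smg9 (Entrez 71997, chromosome 7, 24399619 to 24422778) had 17.2, 17.9 and 17.996 CPM without doxycycline and 7.01, 5.82 and 5.85 CPM with it. The groups do not come near each other, and replicate 1 is the highest of the induced libraries. The log2 fold change was -1.50 ± 0.10 (SE, edgeR adjusted p = 4.9e-13), at the 5.18th percentile of all tested genes. Raw counts in the induced libraries were 123, 90 and 102, the lowest counts of any member, so this value has the widest error of the 9.

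SMG5 is an adaptor that recruits phosphatase and decay enzymes, and SMG6 is the endonuclease that cuts the RNA near the premature stop. Smg5 (Entrez 229512, chromosome 3, 88336260 to 88362338) had 121, 119 and 115 CPM without doxycycline and 88.7, 91.4 and 81.9 CPM with it. The groups do not overlap, and the log2 fold change was -0.44 ± 0.05 (SE, edgeR adjusted p = 9.2e-09). Smg6 (Entrez 103677, chromosome 11, 74925823 to 75164448) had 28.5, 23.9 and 25.1 CPM without doxycycline and 32.6, 28.5 and 33.7 CPM with it. The groups touch, since the highest uninduced library (28.46 CPM) and the lowest induced one (28.54 CPM) are almost equal. Its log2 fold change was 0.29 ± 0.07 (SE, edgeR adjusted p = 0.00103). The gene Srr on the other strand shares 126 bases of exon with Smg6, or 2.15% of Smg6's exon length, and was at 0.24 (edgeR adjusted p = 0.0428). The antisense gene Gm12333 shares 117 bases (2.00%) with Smg6 and was not among the counted genes by that symbol. The strand setting of the counting is not given in the sources used here, so reads in these overlaps cannot be assigned.

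**Figure D2:**
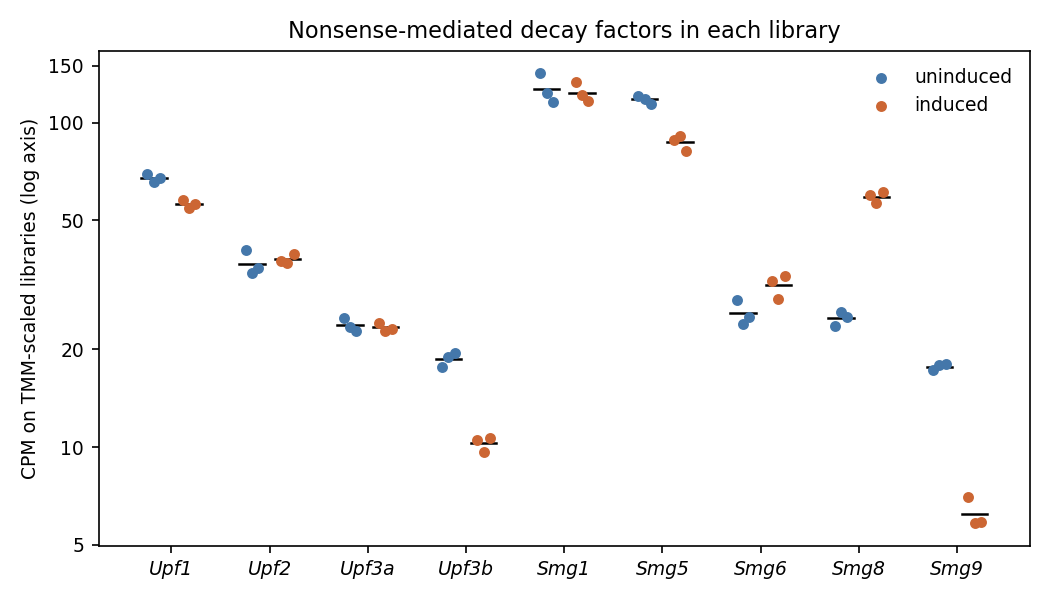
TMM-scaled CPM (y axis, log scale) of each member (x axis) in the 3 uninduced and 3 induced libraries (points), with a line at each group mean. The Smg8 points separate upwards and the Smg9 and Upf3b points downwards, while those of Upf2, Upf3a and Smg1 overlap.

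Ratios of members inside a library do not depend on scaling between libraries. In each pair tested, the 3 induced ratios did not overlap the 3 uninduced ones. The share of all gene pairs that separate in this way was not computed. Of single tested genes, 83.1% did not overlap between groups, so separated ratios are not particular to these pairs. The Smg8/Smg9 pair joins the members that rose and fell most, so its gap restates their fold changes. The exact two-sided permutation test gave p = 0.1 for each of the 5 pairs, which is the smallest value 3 against 3 libraries allow (0.1 after Benjamini-Hochberg adjustment over the 5), so none passes 0.05. Counts of Smg8 were 1.37, 1.46 and 1.401 times those of Smg9 without doxycycline, but 8.55, 9.69 and 10.5 times with it. On the log2 scale this ratio was 2.75 higher in induced cells (0.49 ± 0.04 against 3.25 ± 0.15, SD, n = 3 each). Smg8 was also higher relative to Smg1, the kinase, with count ratios of 0.166, 0.210 and 0.218 without doxycycline and 0.449, 0.463 and 0.525 with it. The proportions of Smg8 to Smg9 and of Smg8 to Smg1 therefore differed between the groups without overlap. Both contain Smg8, the member that rose most, and the ratio of Smg9 to Smg1 was not computed. The permutation test cannot decide on them, since its smallest p here is 0.1.

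The count ratio of Upf3a to Upf3b was 1.42, 1.24 and 1.17 without doxycycline and 2.29, 2.36 and 2.17 with it, a factor of 1.79 between groups. That of Smg5 to Smg6 was 4.25, 4.96 and 4.56 without doxycycline and 2.72, 3.20 and 2.43 with it, a log2 difference of -0.73. That of Upf1 to Upf2 moved least, from 1.71, 1.92 and 1.90 to 1.54, 1.48 and 1.42, a log2 difference of -0.31.

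**Figure D3:**
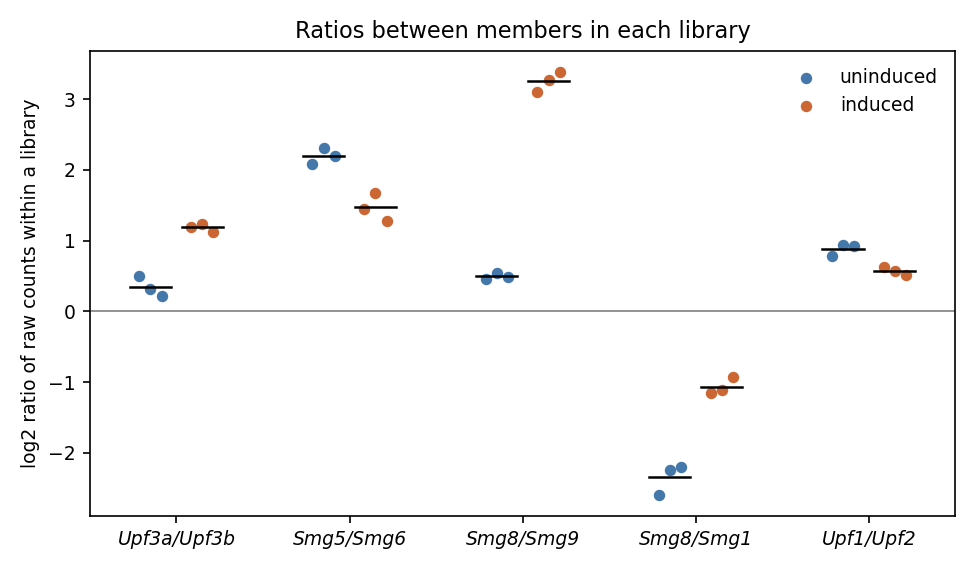
Log2 ratio of raw counts (y axis) between the members of 5 pairs (x axis) in each uninduced and induced library (points), with group means as lines. The groups are apart in all 5 pairs, most in Smg8/Smg9, where they lie 2.75 apart.

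Levels were compared between members as CPM per kilobase of exon in GENCODE M21, from 2.06 kb for Upf3a to 15.6 kb for Smg1. In uninduced cells Smg5 was highest at 26.5 ± 0.736 CPM per kb, followed by Upf1 at 14.6 ± 0.404 and Upf3a at 11.6 ± 0.564 (SD, n = 3). Next came Smg1 (8.18), Upf3b (7.99), Smg9 (7.89), Smg8 (7.75) and Upf2 (7.11 CPM per kb), of which neighbours overlapped between libraries and cannot be ordered. Smg6 was lowest at 4.42 ± 0.404 CPM per kb. The genes of the SMG1 kinase complex therefore stood at overlapping levels per length before induction.

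In induced cells they were spread apart. Smg8 stood at 18.4 ± 0.767 CPM per kb, next to Smg5 at 19.6 ± 1.10 and overlapping it, Smg1 at 7.97 ± 0.561 and Smg9 at 2.78 ± 0.302, the lowest of all members (SD, n = 3). Upf1 (12.2) and Upf3a (11.4) did not overlap, while Smg1 and Upf2 (7.33 CPM per kb) did. Smg6 (5.41) and Upf3b (4.39 CPM per kb), which had been the lowest and among the middle members, turned in order relative to each other and did not overlap. Which isoform of each gene the cells use was not measured, and another length would move a gene's place on this scale without touching its fold change.

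**Figure D4:**
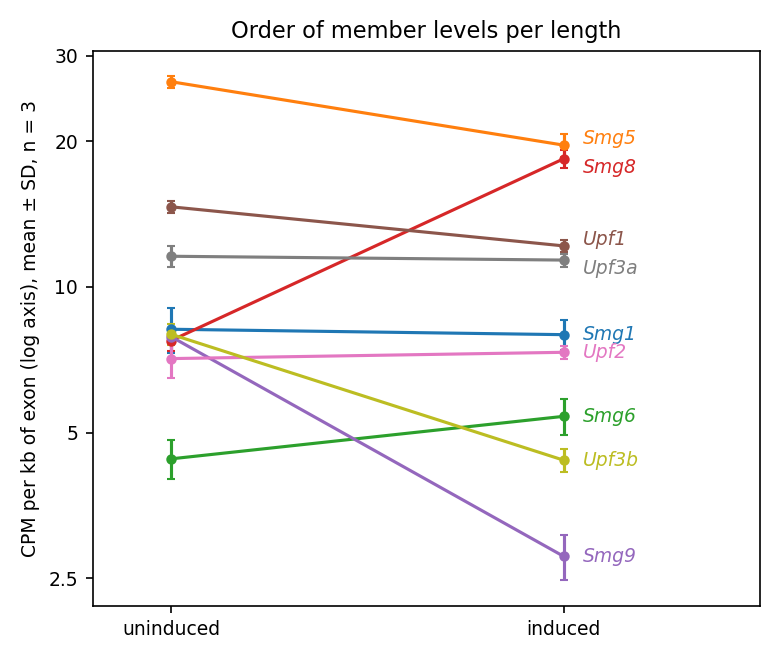
Mean level per kilobase of exon (y axis, CPM per kb on a log scale, with SD bars, n = 3) of each member in uninduced and induced libraries (x axis), joined by a line. Smg1, Upf3b, Smg9, Smg8 and Upf2 start between 7.11 and 8.18 and end between 2.78 (Smg9) and 18.4 (Smg8).

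The messenger RNAs of several of these factors are themselves known as targets of the pathway in mammalian cells, which raises them when decay is blocked. Among the members, Upf1, Upf2, Upf3b, Smg1, Smg5 and Smg6 belong to this set, a grouping made after their values were seen. Of these 6, 1 was higher, 3 were lower and 2 were not called, where 41.3% of all tested genes were higher and 41.2% lower, so nothing is read from the count. Of the other 3 members, Smg8 was higher, Smg9 lower and Upf3a not called. In its longest-coding GENCODE transcript Upf1 has 1 exon wholly past the end of its coding sequence (stop codon not included), and the other 8 members have none. An exon junction downstream of the stop codon can mark an RNA for decay. Whether this Upf1 junction lies downstream of the stop codon, and at what distance, was not measured.

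Further genes of the pathway were taken from 6 lists, of which 65 genes were in the table and 64 were tested. With TMM scaling 27 were higher, 29 lower and 8 not called, against 41.3% higher and 41.2% lower among all tested genes, and their median was -0.05. With library size alone 5 were higher and 57 lower, where 15.2% of all tested genes were higher and 76.7% lower. Exon junction complex genes, whose proteins mark spliced junctions, were mostly higher, with 7 of 11 higher and 1 lower and a median of 0.41, beside -0.01 over all tested genes. That turned to 1 higher and 10 lower (median -0.55) with library size alone. Rbm8a rose by 0.71 ± 0.04 (SE) but was at -0.26 with library size alone, and Magohb, a paralogue of Magoh, fell by 1.01 ± 0.11. Cwc22, a splicing factor that loads the complex, rose by 2.48 ± 0.05 on the log2 scale, and whether copies of the gene share reads in these counts was not tested.

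Of 8 accessory decay factors, 3 were higher and 4 lower, where 41.3% of all tested genes were higher and 41.2% lower. Pnrc2, which links UPF1 to decapping, fell by 1.04 ± 0.05 and Nbas by 0.74 ± 0.07, while Mov10, a helicase, rose by 0.92 ± 0.07 and Gnl2 by 0.74 ± 0.05 (SE), both of which turned with library size alone (-0.04 and -0.22). Termination and cap-binding genes had 3 higher and 3 lower of 6. Ncbp1, the larger cap-binding subunit, rose by 1.17 ± 0.04 while its partner Ncbp2 fell by 0.47 ± 0.06 on the log2 scale. Pabpc1, the poly(A)-binding protein, was higher by 0.57 but at -0.39 with library size alone, and Ctif fell by 0.60 ± 0.06.

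The enzymes that finish the RNA went both ways. The counts below stand beside 41.3% higher and 41.2% lower among all tested genes, and no list was tested as a set. Decapping and exonuclease genes had 4 higher and 4 lower of 9, with the scaffold Edc4 up by 1.28 ± 0.05 and the catalytic Dcp2 down, at -1.05 ± 0.09 (SE). Xrn1, the exonuclease, was higher by 0.57 ± 0.10 but at -0.39 with library size alone, and Dcp1a was at -0.40 ± 0.07. Deadenylation genes had 5 higher and 7 lower of 13. Cnot2 was at 1.00 ± 0.04, not called with library size alone (0.04, edgeR adjusted p = 0.442), and Cnot11 at 0.34 ± 0.05 turned there to -0.62, while Cnot6 was at -0.70 ± 0.05 and Parn at -0.69 ± 0.07. Exosome and SKI genes had 5 higher and 10 lower of 17, with Pelo, the ribosome-rescue factor, at 1.44 ± 0.08 and Exosc2 at 1.31 ± 0.05, and with the exosome subunits Exosc7 at -0.87 ± 0.08 and Exosc6 at -0.83 ± 0.09.

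Transcripts known to be degraded by the pathway were examined with 13 genes. Of these, 6 were higher, 3 lower and 4 not called, against 41.3% higher and 41.2% lower among all tested genes. The called share is not above the background of 82.5%. The median log2 fold change was 0.16, beside -0.01 over all tested genes. Upper-quartile scaling gave 5 higher and 6 lower (35.4% and 47.7% of all tested genes), and library size alone gave 1 higher and 12 lower (15.2% and 76.7% of all tested genes). Atf3, a stress-induced transcription factor gene, was at 4.48 ± 0.07 (SE) and stayed higher with library size alone (3.51). Ddit3 was at 0.49 ± 0.08 but at -0.47 with library size alone. Both genes are also transcribed in response to stress, so their counts do not measure decay alone. Tbl2, Atf4 and Gadd45b were each higher at 0.47, but at -0.49, -0.49 and -0.50 with library size alone. The 5 snoRNA host transcripts of the list did not go 1 way. Snhg1, at -0.37 ± 0.06, Gas5, at -0.33 ± 0.07, and Zfas1, at -0.23 ± 0.06, were lower. Snhg12 was called higher at 0.25 ± 0.10 (edgeR adjusted p = 0.0307), with overlapping groups and at -0.72 with library size alone, and Snhg15, at 0.16 ± 0.15, was not called. Tbl2, Atf4, Gadd45b, Zfas1, Snhg12 and Snhg15 were named after their values were seen. Spliced and unspliced isoforms were not separated in gene-level counts.

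**Figure D5:**
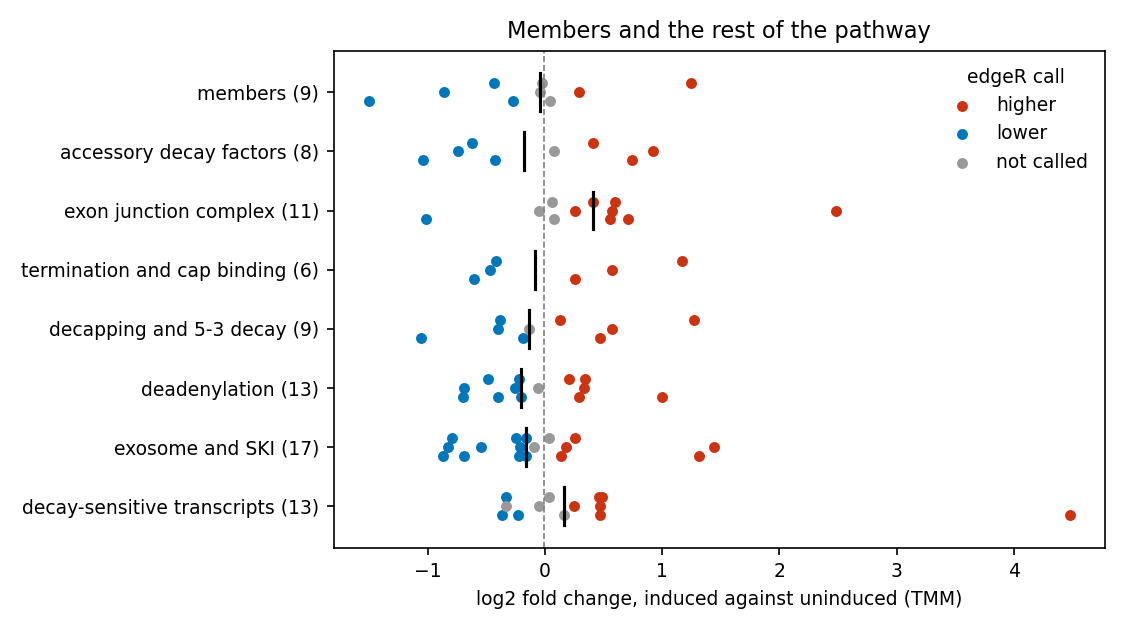
Log2 fold change under TMM (x axis) of each tested gene (points, coloured by edgeR call) in the members and 7 other lists (y axis, number tested in parentheses), with each list's median as a black line and that of all tested genes dashed. Members range from -1.50 to 1.25, and the exon junction complex list has a median of 0.41.

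The pattern of Smg8 was closest, by Euclidean distance between log2 CPM profiles over the 6 libraries, each less its own uninduced mean, to those of Rbmx2 (0.0631), Lrp11 (0.0749) and Mad2l1bp (0.0879). That of Smg9 was closest to those of Cisd2 (0.0951), Slc16a11 (0.123) and Jag2 (0.134). A distance under 0.5 from Smg8 was found for 700 tested genes and from Smg9 for 417, so these neighbours are a few among many genes that moved by a like amount.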

How the data were processed

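TruSeq libraries of polyadenylated RNA from 6 cultures were run 14-plex on 2 lanes, per the labels' protocols. The submitters' processing notes name CASAVA, Bowtie2 2.2.3, TopHat2 2.0.12 and the mm10 build. The authors deposited raw counts of reads per Entrez gene. Which counter, strand setting, multi-mapping rule and annotation were used is not given in the sources used here.

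Groups were taken from the sample titles. In R 4.3.3, genes were filtered with filterByExpr, which kept 12969, scaled by TMM and compared by edgeR 4.0.16 (glmQLFTest after a robust glmQLFit, two-sided, no covariates) and p-values were adjusted by Benjamini-Hochberg across the genes tested. Each SE is the absolute log2 fold change over the root of the F statistic. Exon lengths, overlaps and member coordinates came from the GENCODE M21 basic set (GRCm38, the assembly of mm10), in which all 9 members matched by Ensembl identifier, and promoters from RefSeq, in which all 9 matched. Ratios had 0.5 added to each count for the log2 scale. Alternatives were DESeq2 1.42.0, voom from limma 3.58.1, scaling by upper quartile, by RLE or by library size, other count filters, robust=FALSE, repeated families removed, a replicate block, each library left out, an adjusted p of 0.01 and a glmTreat test against 1.5-fold. The members and lists were chosen with earlier results of these data known. Named were all members and, from each list, up to the 2 highest and 2 lowest called genes whose groups do not overlap, and the 3 genes most alike in pattern to the members that rose and fell most. Replicate libraries of a group correlated at r = 0.993 to 0.997 across genes and differed beyond counting noise, with chi-square at least 2.40 times its degrees of freedom. The series description gives separate cultures of 1 clone, so p-values measure the spread between cultures of that clone.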

Additional observations from a re-analysis of the deposited data

How the results depend on the processing

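Calls for Upf1, Upf3b, Smg5, Smg8 and Smg9 kept their direction and threshold under every scaling, tool, filter, block and left-out library. With library size alone 1 member was higher and 8 lower, where 15.2% of all tested genes were higher and 76.7% lower. Upf2 (-0.92), Upf3a (-0.99), Smg1 (-1.001) and Smg6 (-0.67) were among the lower members. In that setting 5 other pathway genes were higher and 57 lower, and 1 decay-sensitive transcript was higher and 12 lower. Under upper-quartile scaling 1 member was higher and 6 lower, where 35.4% of all tested genes were higher and 47.7% lower. Upf2 at -0.10 and Smg6 at 0.15 were not called, Upf3a was at -0.17 and Smg1 at -0.18, and 6 decay-sensitive transcripts were lower. Without the count filter Upf2 was at -0.030 and Smg1 at -0.11 (called lower). With glmTreat against 1.5-fold 1 member was higher and 2 lower, so not all of the calls named first held there. Of all tested genes, 23.4% were higher and 19.4% lower in that test. The cause was not tested, except that a scaling shifts all genes together.

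Leaving out each library left 2 members higher and 4 lower, where 39.8% to 41.1% of all tested genes were higher and 39% to 40.4% lower. Of the members not called, Upf2 ranged from -0.0084 to 0.12, Upf3a from -0.061 to 0.011 and Smg1 from -0.11 to 0.048. Signs turned for Upf3a (0.011) and Smg1 (0.048) without uninduced replicate 1, for Upf2 (-0.0084) without uninduced replicate 2 and for Smg1 (0.0092) without induced replicate 3. Ratios within libraries kept their sign with 10 counts added and with each library left out. The labels do not say whether replicate numbers pair cultures. Same-numbered libraries deviated together at r = 0.0604, 0.0166 and 0.0335, against -0.043 to 0.00901 for libraries of other numbers. Each library correlated best with its own number. These values are not independent, since deviations were taken from the means of 3 libraries and each pair counts for both its libraries. Whether a number marks a shared batch was not tested. The replicate block left 2 members higher and 4 lower, where 41.7% of all tested genes were higher and 41.7% lower. Depth limits Smg9 most, with 90 to 123 induced counts.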
